A study of Mus musculus with 12 samples.

Results

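This account follows 8 genes of mouse chromosome 5, the chromosome that carries Auts2, whose RNA differed between newborn knockout and wild-type forebrain. They are Atp10d, Zfp605, Coq2, Cdkl2, Nwd2, Gm1673, 9330182L06Rik and C530008M17Rik, out of 55487 genes in the count tables and 1065 genes of chromosome 5 that had enough reads to be tested at postnatal day 0 (P0). They were picked by name for their P0 difference, so every P0 value below is a description. The rule of choice did not use the postnatal day 14 (P14) values, which carry the tests. Earlier results of these data were known when the genes were picked, so full independence is not assured. All 8 genes matched an Ensembl identifier, and all 8 had enough reads to be tested at both ages.

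RNA was sequenced from 12 male mice, 3 in each of 4 groups. At P0 the whole forebrain of cmv-cre_auts2-ex7koko mice was set against that of wild-type littermates labelled BL6 WTLM. The knockouts are labelled as homozygous for the exon 7 knockout, made with Cmv-cre, a Cre transgene active in nearly all tissues and in the germline. At P14 the hippocampus of nes-cre_auts2-ex7koko mice, in which the Nestin promoter drives Cre in neural progenitors and their descendants, was set against that of auts2-ex7-fl-het mice. The P14 controls therefore carried a floxed allele, while the P0 controls are labelled wild type, and whether the P14 controls also carried Cre is not stated. The floxed allele is Auts2tm1.1Dare, and the labels give the Cre lines as B6.C-Tg(CMV-cre)1Cgn/J and B6.Cg-Tg(Nes-cre)1Kln/J. Gene counts summed to between 11247150 and 16796797 per P0 library and to between 16830720 and 23340621 per P14 library. Each library is 1 animal, and in bulk tissue fewer cells of a type and less RNA per cell cannot be told apart.

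Auts2 encodes a nuclear and cytoplasmic protein of developing neurons. In the nucleus it joins a variant Polycomb complex that is linked to active genes, and in the cytoplasm it acts on actin through small GTPases. A knockout made by crossing can also bring along alleles that lie near the targeted locus on its chromosome. Genes of that chromosome are therefore commonly examined on their own. The 8 genes have unrelated functions. Atp10d is a class V P4-ATPase, a pump that moves lipids from the outer to the inner leaflet of a membrane, and GENCODE lists the mouse gene as a polymorphic pseudogene, meaning that the reference strain carries a disabled copy. Coq2 attaches the polyprenyl tail in the synthesis of coenzyme Q, the electron carrier of mitochondria. Cdkl2 is a serine/threonine kinase related to the cyclin-dependent kinases. Zfp605 is a zinc finger protein of the KRAB family, Nwd2 has NACHT and WD repeat domains, and Gm1673 encodes a small secreted protein known in human as C4orf48. RefSeq names 9330182L06Rik Elapor2, a single-pass membrane protein, and C530008M17Rik Cracd, an inhibitor of actin capping protein.

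The 8 genes were spread over most of the chromosome and none was a close neighbour of Auts2 (ENSMUSG00000029673, GRCm38 chromosome 5 from 131437333 to 132543344, minus strand). The nearest was Zfp605 (ENSMUSG00000023284, from 110110092 to 110129794, plus strand), 21.3 Mb away. Coq2 (ENSMUSG00000029319, from 100654723 to 100675140, minus strand) followed at 30.8 Mb and Cdkl2 (ENSMUSG00000029403, from 92006074 to 92043883, minus strand) at 39.4 Mb. C530008M17Rik (ENSMUSG00000036377, from 76656512 to 76873554, plus strand) lay 54.6 Mb away and Atp10d (ENSMUSG00000046808, from 72203329 to 72298775, plus strand) 59.1 Mb away. Nwd2 (ENSMUSG00000090061, from 63649102 to 63810546, plus strand), Gm1673 (ENSMUSG00000070858, from 33983433 to 33985013, plus strand) and 9330182L06Rik (ENSMUSG00000056004, from 9266118 to 9481825, plus strand) were farther still, at 67.6, 97.5 and 121.96 Mb.

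Promoter sequence was taken from RefSeq on GRCm38.p6, which gave an entry for 7 of the 8 genes; Atp10d had none. The 250 bases before the transcription start are shown for the 2 genes that were higher in the P0 knockout, Coq2 and Gm1673, and for 2 that were lower, Zfp605 and Nwd2, because these 4 run from a CpG-poor to a CpG-rich start. Capitals mark CpG dinucleotides, the sites of DNA methylation. The windows are chr5:100674257-100674506 on the minus strand for Coq2, and on the plus strand chr5:33983183-33983432 for Gm1673, chr5:110109842-110110091 for Zfp605 and chr5:63648853-63649102 for Nwd2.
Coq2: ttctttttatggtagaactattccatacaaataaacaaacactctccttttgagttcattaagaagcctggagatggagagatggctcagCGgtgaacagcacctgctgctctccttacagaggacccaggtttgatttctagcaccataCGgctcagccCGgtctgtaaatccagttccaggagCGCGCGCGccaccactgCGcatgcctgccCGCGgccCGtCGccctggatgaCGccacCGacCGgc
Gm1673: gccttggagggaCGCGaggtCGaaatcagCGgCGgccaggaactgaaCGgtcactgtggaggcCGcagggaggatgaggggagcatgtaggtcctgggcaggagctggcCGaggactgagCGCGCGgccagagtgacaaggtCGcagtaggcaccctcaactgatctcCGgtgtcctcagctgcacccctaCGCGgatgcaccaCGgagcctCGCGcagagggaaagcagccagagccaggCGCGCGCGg
Zfp605: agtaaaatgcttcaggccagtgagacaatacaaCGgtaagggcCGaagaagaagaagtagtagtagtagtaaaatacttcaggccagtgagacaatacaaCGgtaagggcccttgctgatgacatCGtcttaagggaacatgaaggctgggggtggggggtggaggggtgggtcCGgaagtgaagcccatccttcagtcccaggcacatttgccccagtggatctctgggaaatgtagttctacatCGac
Nwd2: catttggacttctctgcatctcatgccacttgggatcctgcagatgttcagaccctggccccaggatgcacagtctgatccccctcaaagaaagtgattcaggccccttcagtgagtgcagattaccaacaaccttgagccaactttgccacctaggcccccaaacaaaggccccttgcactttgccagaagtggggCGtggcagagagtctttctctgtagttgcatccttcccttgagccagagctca

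Coq2 held 15 CpG and Gm1673 held 22, against 6 in Zfp605 and 1 in Nwd2, and the median over 32851 promoters was 6. Among the other genes that were lower in the knockout, 9330182L06Rik held 26, the 2 Cdkl2 starts held 11 and 18, and C530008M17Rik held 3. The Zfp605 window carries the 35-base stretch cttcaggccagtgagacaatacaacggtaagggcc at positions -241 and -174 from the start, and 0.365% of promoters hold a repeat at least that long. Both strands were searched for GGGCGG (SP1), CCAAT (NF-Y) and TGACGTCA (CREB), which occur in 32.7%, 33.8% and 1.55% of promoters. None of the 3 was found in the Coq2, Gm1673, Zfp605 or Nwd2 window. The SP1 letters were found in both Cdkl2 windows and in 9330182L06Rik, and the CCAAT letters in both Cdkl2 windows and in C530008M17Rik. These are matches of letters only, and the RefSeq starts of C530008M17Rik, Coq2 and Cdkl2 lie inside the longer GENCODE genes.

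Auts2 itself did not pass in either context. Its level was 164.7, 181.7 and 161.1 CPM (reads of the gene scaled to library size, on 1 scale for all 12 libraries) in P0 knockouts and 160.4, 136.2 and 155.4 CPM in wild types (log2 fold change 0.16, SE 0.08, edgeR adjusted p 0.362), and at 92.98, 77.5 and 75.2 CPM in P14 knockouts against 97.5, 97.96 and 110.3 CPM in controls (-0.30, SE 0.09, edgeR adjusted p 0.111). Counts over the whole gene do not show loss of exon 7.

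At P0, 6 of the 8 genes were lower and 2 were higher in the knockout, where 0.717% of all tested genes were called lower and 0.192% higher. Atp10d had the widest difference. Its level was 5.01, 4.39 and 4.66 CPM among knockouts, and 15.4, 14.9 and 8.86 CPM in the wild types. The groups did not overlap, and wild-type replicate 3 sat between the other wild types and the knockouts. On the log2 scale this is a fold change of -1.47 (SE 0.21), a level 2.76-fold lower in the knockout. These values rest on 53 to 77 reads per knockout library and 160 to 184 per wild-type library.

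Zfp605, whose KRAB class of factors silences chromatin, was next in size. Its level was 33.2, 30.3 and 23.5 CPM in knockouts and 74.1, 64.4 and 47.1 CPM in wild types. Replicate 3 was the lowest of its group in both genotypes, and every knockout stayed below every wild type. The log2 fold change was -1.10 (SE 0.18), or 2.14-fold lower.

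The other falls were smaller and more even. Cdkl2 measured 47.0, 45.5 and 50.9 CPM in knockouts and 65.1, 68.4 and 62.8 CPM in wild types, a log2 fold change of -0.46 (SE 0.08). 9330182L06Rik was at 60.9, 65.1 and 59.3 CPM against 89.8, 80.6 and 79.5 CPM, a log2 fold change of -0.44 (SE 0.08). Both genes kept a clear gap between genotypes. Nwd2 was at 54.8, 62.9 and 59.9 CPM against 77.5, 73.3 and 80.3 CPM, a log2 fold change of -0.39 (SE 0.08). C530008M17Rik, the most counted of the 8, was at 249.02, 252.8 and 238.7 CPM against 319.4, 305.9 and 299.4 CPM, a log2 fold change of -0.33 (SE 0.07). For it, the knockout and wild-type libraries each stayed within a narrow band.

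Coq2 and Gm1673 were higher in the knockout. Coq2 measured 44.5, 39.1 and 46.1 CPM in knockouts and 26.8, 26.1 and 33.7 CPM in wild types, with a log2 fold change of 0.57 (SE 0.11), or 1.49-fold. Gm1673 measured 86.3, 87.3 and 104.6 CPM in knockouts and 62.1, 72.4 and 70.4 CPM in wild types, with a log2 fold change of 0.44 (SE 0.09), or 1.35-fold. Replicate 3 was the highest library of the knockout group for both genes, and of the wild-type group for Coq2.

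The adjusted p-values behind the choice ran from 0.0164 for Atp10d to 0.0483 for Nwd2 (edgeR quasi-likelihood test, Benjamini-Hochberg over 16176 genes). All 8 genes therefore passed the threshold of 0.05, which 0.909% of tested genes passed. All 8 also had groups that did not overlap, as did 21.8% of tested genes. The first chromosome 5 genes outside the threshold were Sept11 (log2 fold change -0.31, adjusted p 0.0516) and Ccng2 (0.38, adjusted p 0.0565), next to Nwd2 (0.0483) and Gm1673 (0.0483) inside it. The median log2 fold change was -0.41 over the 8 genes and -0.00034 over all tested genes.

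**Figure D1:**
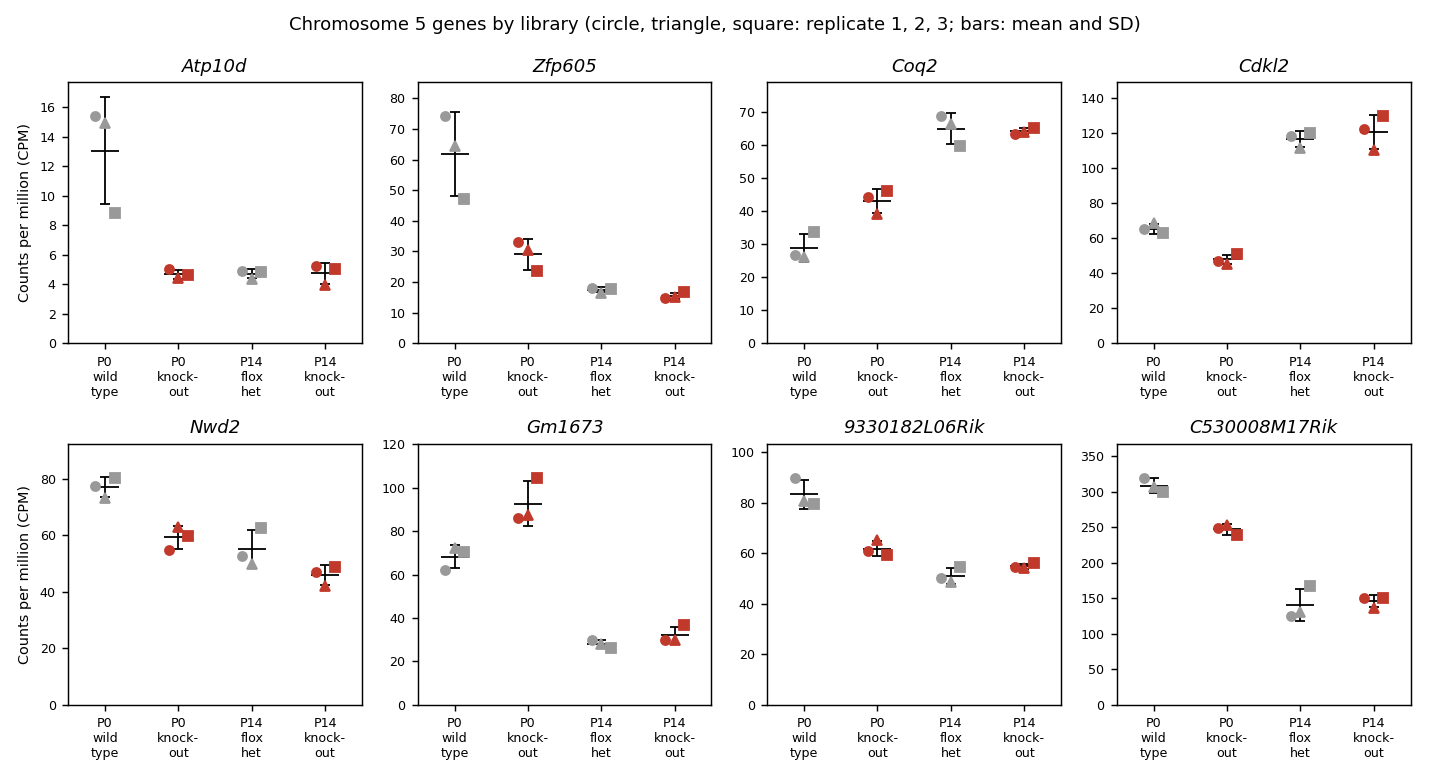
CPM, reads scaled to library size (vertical axis, from 0) of each gene in the 4 groups, with 1 point per library and the mean and SD of each group of 3. Atp10d falls from 13.05 to 4.69 CPM on average between P0 wild type and P0 knockout, and lies at 4.71 and 4.75 CPM in the P14 controls and knockouts.

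The P0 libraries carry numbers from 2 series, 1407 to 1410 and 1415 to 1416, and replicate 3 of each genotype is the second series. All 8 genes had the same direction in both, which follows from groups that do not overlap and is no separate evidence. Atp10d differed by -1.66 in mean log2 CPM within the first series and by -0.91 within the single pair of the second, and Zfp605 by -1.12 and -0.998. Coq2 differed by 0.66 and 0.45, Cdkl2 by -0.53 and -0.30, and Gm1673 by 0.37 and 0.57. For Nwd2, 9330182L06Rik and C530008M17Rik the values were -0.36 and -0.42, -0.43 and -0.42, and -0.32 and -0.33. The difference was wider in the second series for 3 of the 8 genes and narrower for 5, which a pair without replicates cannot test. With the series as a term, or within the first series alone, 8 of 8 genes passed, where 2.87% and 12.9% of all tested genes did.

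The calls needed most of the libraries. With knockout replicate 1, knockout replicate 2, wild-type replicate 1 or wild-type replicate 2 left out, 0 of the 8 genes passed by edgeR, although all 8 had an unadjusted p under 0.05 in each of these 4 fits (16.1% of tested genes did with all libraries). Those fits called 1, 15, 2 and 1 genes in all. Without knockout replicate 3, 7 of 8 passed, Zfp605 being the exception (log2 fold change -0.96, edgeR adjusted p 0.0807). That fit called 775 of 16528 tested genes. Without wild-type replicate 3, 6 of 8 passed, with Nwd2 (adjusted p 0.0973) and Gm1673 (adjusted p 0.0648) above the threshold by edgeR. Here 249 of 16536 tested genes were called. Directions held in every one of these fits, which groups that do not overlap leave little room to change. Atp10d ranged from -1.68 to -1.33, Zfp605 from -1.26 to -0.95 and Coq2 from 0.50 to 0.72.

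**Figure D2:**
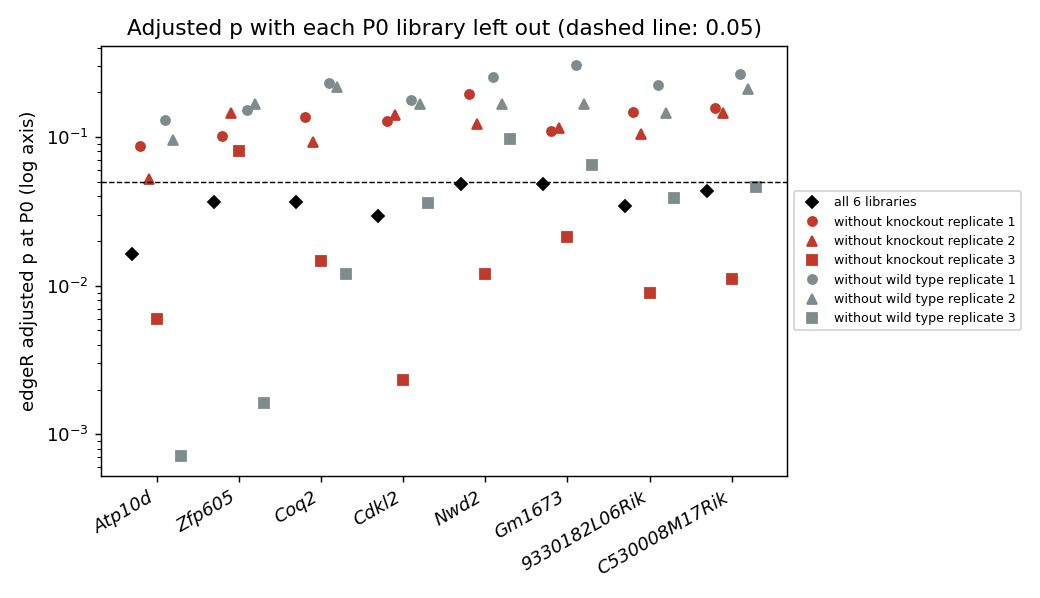
Benjamini-Hochberg adjusted p from edgeR at P0 (vertical log axis) for each gene, with all 6 libraries (diamonds) and with each library left out in turn (red, a knockout left out; grey, a wild type left out). The points above the dashed line at 0.05 are mostly fits without replicate 1 or 2 of either genotype, and for Atp10d the lowest point, 0.00071, is the fit without wild-type replicate 3.

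The P14 hippocampus gave the test that the rule of choice had not used, although earlier results of these data were known. There 0 of the 8 genes passed by edgeR or by DESeq2, where edgeR called 1.99% of 17208 tested genes, and 1 of 8 had an unadjusted p under 0.05, as did 15.2% of tested genes. Of the 8, Nwd2 alone had groups that did not overlap at P14, with the knockouts lower, as in 10.6% of tested genes. The log2 fold changes of the 8 genes ran from -0.25 to 0.20, with a median of 0.04, and the median over all tested genes was -0.0073. Of the 8 genes, 3 had the same sign as at P0.

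Atp10d was at 5.27, 3.95 and 5.02 CPM in the P14 knockouts and 4.91, 4.36 and 4.85 CPM in the controls. The genotypes overlapped, and both overlapped the P0 knockouts. The log2 fold change was 0.02 with a 95% interval from -0.38 to 0.42 (edgeR adjusted p 0.974), so a fall of the P0 size lies outside the interval. Zfp605 measured 14.9, 15.1 and 16.6 CPM in knockouts and 18.1, 16.5 and 17.8 CPM in controls, a log2 fold change of -0.16 with an interval from -0.39 to 0.07 (edgeR adjusted p 0.525). Its groups overlapped through a single pair of libraries.

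Coq2 was nearly level between the P14 genotypes, at 63.5, 64.1 and 65.4 CPM in knockouts and 68.7, 66.5 and 59.8 CPM in controls. Its log2 fold change was -0.0035, with an interval from -0.17 to 0.16 (edgeR adjusted p 0.99). Cdkl2 was at 122.02, 110.3 and 129.5 CPM against 118.1, 111.4 and 120.2 CPM, a log2 fold change of 0.06 with an interval from -0.11 to 0.23 (edgeR adjusted p 0.784). In neither gene did the interval reach the P0 value.

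9330182L06Rik stood at 54.4, 54.1 and 56.02 CPM in the P14 knockouts and at 50.1, 48.5 and 54.6 CPM in the controls. Its log2 fold change of 0.11 had an interval from -0.05 to 0.28 (edgeR adjusted p 0.537). C530008M17Rik was at 150.2, 135.7 and 150.4 CPM against 124.96, 131.02 and 166.6 CPM, a log2 fold change of 0.06 with an interval from -0.17 to 0.28 (edgeR adjusted p 0.86). The spread of its controls came from replicate 3. Without that library the log2 fold change was 0.20 (edgeR adjusted p 0.0715), and 10.3% of tested genes outside chromosome 5 passed in that fit.

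Nwd2 and Gm1673, like Zfp605, had the same sign as at P0. Nwd2 was at 47.1, 42.1 and 48.6 CPM in the P14 knockouts and 52.8, 49.98 and 62.5 CPM in the controls. Its log2 fold change of -0.25 had an interval from -0.46 to -0.05, which holds the P0 value, but it did not pass (edgeR adjusted p 0.219, unadjusted p 0.0196; exact two-sided permutation p 0.1, the smallest that 3 against 3 allows). Gm1673 measured 29.7, 29.7 and 36.6 CPM in knockouts and 30.04, 27.98 and 26.1 CPM in controls. Its log2 fold change of 0.20 had an interval from -0.02 to 0.42 (edgeR adjusted p 0.375), and without knockout replicate 3 it was 0.09. Nwd2 was the only gene of the 8 whose P14 interval held the P0 value.

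**Figure D3:**
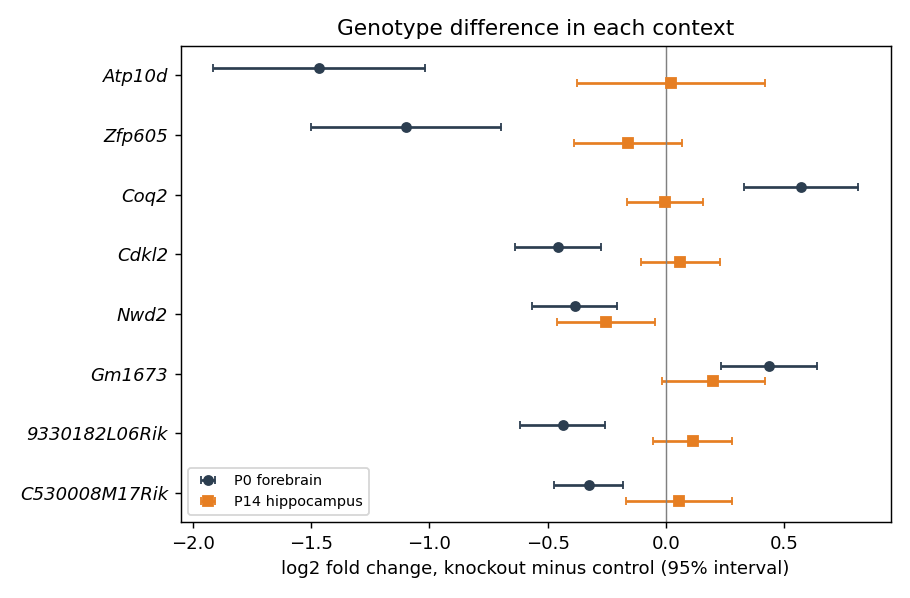
log2 fold change of knockout minus control (horizontal axis) with its 95% interval for each gene, at P0 (circles) and P14 (squares). The P0 points, which chose the genes, lie between -1.47 and 0.57, while the P14 points lie between -0.25 and 0.20 and their intervals, apart from that of Nwd2, include 0.

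The genotype effect at P14 minus that at P0 passed in the interaction term over all 12 libraries for 5 of the 8 genes, Atp10d, Zfp605, Coq2, Cdkl2 and 9330182L06Rik, where 1.79% of 18189 tested genes passed by edgeR. This count holds the P0 values that chose the genes and is a description.

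Levels also differed between the contexts. Wild-type P0 forebrain was above control P14 hippocampus for 6 of the 8 genes. On the RPKM scale, CPM divided by exon length in kilobases, which allows levels of different genes to be compared, Gm1673 was the highest of the 8 in P0 wild type at 102.1, beside 41.9 in the P14 controls. Zfp605 went from 17.7 to 4.99 RPKM and Atp10d from 1.66 to 0.60 RPKM, the lowest level of the 8. C530008M17Rik went from 25.05 to 11.4, 9330182L06Rik from 10.5 to 6.45 and Nwd2 from 7.39 to 5.28 RPKM. Coq2 and Cdkl2 went the other way, from 11.002 to 24.8 and from 10.8 to 19.2 RPKM.

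For 6 of the 8 genes the P0 knockout lay on the P14 side of the P0 wild type, and the 2 exceptions were Cdkl2 and Gm1673. Atp10d in the P0 knockouts, at 0.597 RPKM, overlapped both P14 groups, whose means were 0.605 RPKM in knockouts and 0.600 RPKM in controls. Nwd2 in the P0 knockouts overlapped the P14 controls as well. For the other 6 genes both P0 groups were separate from both P14 groups, and the share of all genes so separated was not counted. This order of levels is a description, since the contexts differ in age, in tissue, in the Cre line and in the genotype of the controls, which cannot be told apart.

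Calls at P0 were also counted among the neighbours of the 8 genes. Among 148 tested genes whose start lay within 1 Mb of one of the 8, 1 was called at P0, or 0.676%, beside 0.909% over all genes. That gene was Grm3, which encodes a metabotropic glutamate receptor and follows 9330182L06Rik directly. Grm3 was at 29.8 ± 7.21 CPM in knockouts and 49.1 ± 3.15 CPM in the wild types (SD, n = 3 each). Its log2 difference was -0.73 (SE 0.15, edgeR adjusted p 0.0491). It passed in 2 of the 6 fits with 1 library left out, those without knockout replicate 2 or 3. Within 5 Mb, 9 of 513 were called, or 1.75%, but the 8 genes were not left out of each other's windows. Atp10d and C530008M17Rik are each the other's called neighbour there, and 4 calls lie near 9330182L06Rik. The 5 Mb windows overlap, so some genes count more than once.

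Of the 16 tested genes that flank the 8, Grm3 alone passed at P0 by edgeR, and 0 passed at P14. Over all tested genes 0.909% passed at P0 and 1.99% at P14. Commd8 and Nfxl1, which flank Atp10d, had P0 log2 fold changes of 0.06 and 0.20 (edgeR adjusted p 0.786 and 0.349). Cops4, beside Coq2, had 0.0012, and G3bp2, beside Cdkl2, had 0.03. Gtpbp6 and Chfr, which flank Zfp605, had -0.30 (edgeR adjusted p 0.33) and 0.04. Thap6, also beside Cdkl2, had a wide error (0.55, SE 0.32, edgeR adjusted p 0.425). Gm9954, which overlaps Nwd2 on the opposite strand, had -0.48 (SE 0.14, edgeR adjusted p 0.109). At P14, 1 of 156 neighbours within 1 Mb was called, Gm6051 near C530008M17Rik, which had at most 29 reads in a library and was called in 1 of 6 fits with a library left out, that without P14 control replicate 3.

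Reads were counted without regard to strand, and 6 of the 8 genes overlap another annotated gene. The overlap on the opposite strand reaches exons for C530008M17Rik (A730089K16Rik, 1844 of 12305 exonic bases), Nwd2 (Gm9954, 1219 of 10428), Cdkl2 (Gm26582, 166 of 6064) and Zfp605 (the processed pseudogene Gm15484, 132 of 3497). In those stretches the partners' reads cannot be told apart. Zfp605 also belongs to a large family of related zinc finger genes, so its reads may be divided among copies. Atp10d and Gm1673 overlap no other gene.

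Chromosome 5 as a whole had the highest share of called genes at P0. Of its 1065 tested genes, 23 were called, or 2.16%, of which 18 were lower and 5 higher. The other 19 chromosomes counted here, X included, had 124 calls among 15070 genes (0.823%), with chromosomes from 0% to 1.71%. At P14 chromosome 5 had 19 of 1127 genes called (1.69%), inside the range of 0.407% to 2.93% on the others. The median log2 fold change of chromosome 5 genes at P0 was 0.0081, beside -0.00034 over all genes. No test of the share was made. Without knockout replicate 1, knockout replicate 2, wild-type replicate 1 or wild-type replicate 2, chromosome 5 had 1, 3, 1 and 1 calls. These were 0.0909%, 0.274%, 0.0912% and 0.0915% of its tested genes, against 0%, 0.0776%, 0.00646% and 0% elsewhere. The share was 4.79% against 2.14% elsewhere with DESeq2 and 0.939% against 0.265% without robust fitting. It was 4.79% against 2.74% with the series as a term and 15.9% against 12.7% in the first series alone.

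**Figure D4:**
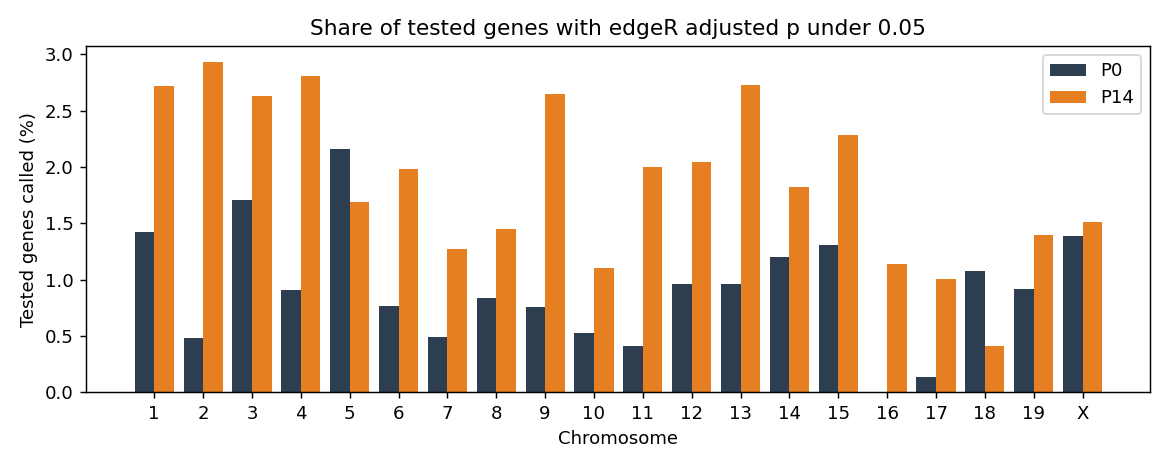
Share of tested genes with an edgeR adjusted p under 0.05 (vertical axis, percent, from 0) on each chromosome at P0 and P14. Chromosome 5 is the tallest P0 bar at 2.16%, while at P14 its 1.69% lies among the others.

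The P0 calls were spread along the chromosome. Within 10 Mb of it 3 of 272 tested genes were called (1.10%), from 10 to 20 Mb 6 of 215 (2.79%), from 20 to 40 Mb 4 of 146 (2.74%) and from 40 to 60 Mb 3 of 74 (4.05%). From 60 to 80 Mb it was 1 of 60, from 80 to 100 Mb 1 of 127, and beyond 100 Mb 5 of 171 (2.92%). The 8 genes of this account fill 3 of the calls from 20 to 40 Mb, 2 from 40 to 60 Mb and 1 in each bin beyond. The bins hold few calls, and most of these were lost without replicate 1 or 2 of either genotype.

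**Figure D5:**
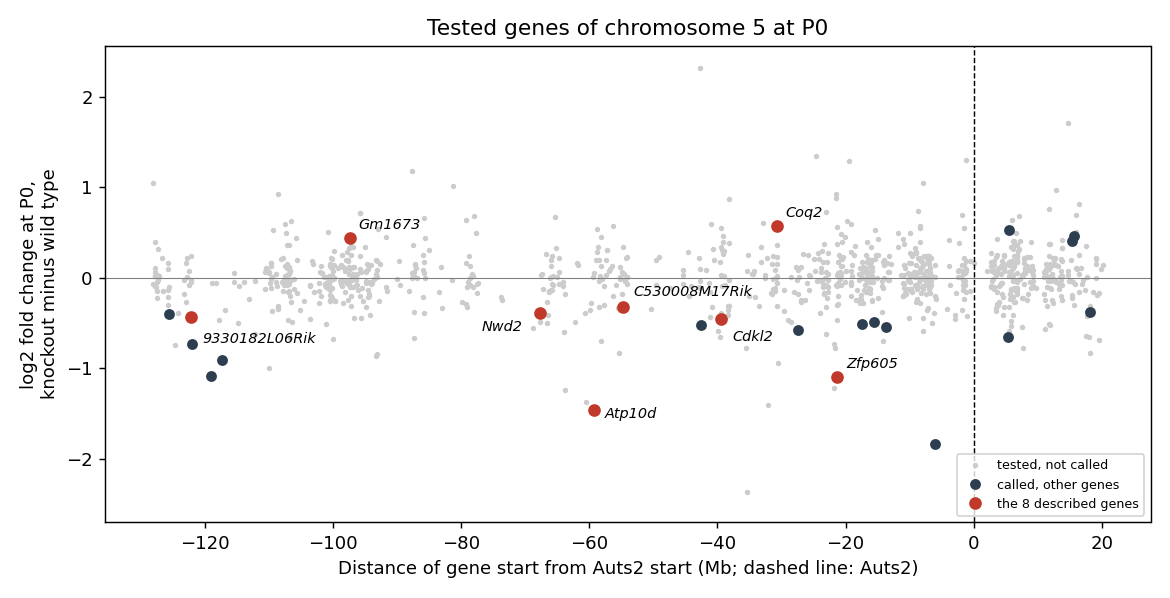
log2 fold change at P0 (vertical axis) of every tested chromosome 5 gene against the distance of its start from that of Auts2 in Mb (horizontal axis, dashed line at Auts2). The 8 described genes (red) are scattered over the chromosome among genes close to 0 (grey), and dark points mark other called genes.

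Among the other called genes of chromosome 5, given with their log2 fold changes, Sema3d (-1.09), Sema3e (-0.91), Col26a1 (-0.66), Sparcl1 (-0.57), Nos1 (-0.54), Slc4a4 (-0.52), Ssh1 (-0.51), Cit (-0.49), the pseudogene Gm15459 (-0.40) and Hsph1 (-0.38) were lower at P0, as was Grm3. Znhit1 (0.53), Polr1d (0.47) and Rpl21 (0.40) were higher. These 14 genes passed in 1 to 3 of the 6 fits with a P0 library left out. Of these 14, Cit alone was also called at P14, where it was higher (0.56, edgeR adjusted p 0.005), and it passed there in all 6 fits with a library left out.

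Of 64 tested genes on the lists of relatives and partners of the 8, 1 passed at P0 by edgeR and by DESeq2, where edgeR called 0.909% of all tested genes, and 6 had an unadjusted p under 0.05, as did 16.1% of all tested genes. None of the 12 tested genes of coenzyme Q synthesis other than Coq2 passed, and 4 of them had a negative log2 fold change, with a median of 0.13. Coq7, a hydroxylase late in the pathway, had 0.29 (SE 0.11, edgeR adjusted p 0.222) and Coq3, a methyltransferase, 0.21 (SE 0.11, edgeR adjusted p 0.371). Of 12 tested P4-ATPases and subunits other than Atp10d 0 passed, with a median of -0.08. All 4 other Cdkl kinases were tested and 0 passed, with a median of -0.22.

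The KRAB corepressor list had 0 of 6 passing, actin capping and its regulators 0 of 11, Nell1, Nell2 and Ros1 0 of the 2 tested, and the Elapor and BMP list 0 of 14. The gene that passed was Nwd1, the paralog of Nwd2 on chromosome 8, at 31.6 ± 4.69 CPM in P0 knockouts and 46.2 ± 4.50 CPM in wild types (SD, n = 3 each). Its log2 difference was -0.55 (SE 0.11, edgeR adjusted p 0.0453), and it passed in 2 of the 6 fits with a library left out, those without replicate 3 of either genotype. At P14, 3 of 66 list genes passed by edgeR and by DESeq2, beside 1.99% of all tested genes by edgeR, and 12 had an unadjusted p under 0.05, beside 15.2%. Hpdl of the coenzyme Q list fell by 1.22 on the log2 scale (edgeR adjusted p 0.0134), and Bmpr2 and Id3 of the BMP list fell by 0.31 and 0.47 (edgeR adjusted p 0.0309 and 0.0352). Hpdl and Id3 passed in 2 and Bmpr2 in 1 of the 6 fits with a P14 library left out, in each case without control replicate 3 and for the first 2 also without knockout replicate 3.

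Over all 12 libraries, with the mean of each context subtracted, the 8 genes varied together. Pearson r in log2 CPM lay between 0.649 and 0.945 for the 16 pairs that differed in the same direction at P0 and between -0.93 and -0.532 for the 12 opposite pairs. These libraries include the ones that chose the genes, so the sign follows from the choice, and so does part of the size of r. The closest patterns below rest on the same libraries. Among 14207 genes, Cntn1, a neuronal adhesion molecule on chromosome 15, had the pattern most like both Atp10d (r 0.969) and Zfp605 (r 0.969). Adcy2 followed for Atp10d (0.956) and Pgm2l1 for Zfp605 (0.966). Closest to Cdkl2 were Lrfn5 (0.957) and Cadps2 (0.947), and to Coq2 Gm27032 (0.96) and a gene without a symbol (0.953). Closest to Nwd2 were Ctsc (0.928) and Dse (0.927), and to C530008M17Rik Tmod2 (0.957) and Igsf10 (0.947). Gm1673 was nearest to Dnajb1 (0.946) and Eif3b (0.937), and 9330182L06Rik to Gabrg3 (0.954), a GABA receptor subunit, and Tmem132b (0.95). Of the 15 genes, 2 lie on chromosome 5, Eif3b and Tmem132b.

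Marker genes of cell types differed between genotypes in the same libraries. The summed level of 5 astrocyte markers was 373.3 to 381.3 CPM in knockouts and 418.1 to 561.9 CPM in wild types, with 1 of 5 passing (Aqp4). Oligodendrocyte precursor markers summed to 193.8 to 198.7 against 219.8 to 246.1 CPM, with 0 of 5 passing, and microglia markers to 48.04 to 52.8 against 53.5 to 70.5 CPM, with 1 of 6 passing (P2ry12). Excitatory neuron markers summed to 1076 to 1170 against 863.8 to 1043 CPM, although Slc17a7 alone passed and was lower. Dentate granule markers summed to 94.7 to 99.1 against 115.4 to 129 CPM at P0, with 4 of 4 log2 fold changes negative and 1 of 4 passing (Calb1). At P14, 4 of 4 dentate granule markers passed and were lower in knockouts, with sums of 227 to 265.1 against 377.7 to 422.3 CPM, and the striatal marker Drd1 was higher, with striatal sums of 66.1 to 121 against 34.95 to 49.9 CPM. No marker of these lists was at 0. Their part in the values of the 8 genes was not tested.

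Whether the P0 differences come from chromosome 5 alleles that accompany the targeted locus, or from the loss of exon 7, was not tested. Gene counts alone cannot tell these apart, and sequence variants were not analysed here. At P14 0 of 8 genes passed, where 1.99% of all tested genes did. That context differs in age, tissue and Cre line as well as in its floxed controls. The genes lie 21.3 to 121.96 Mb from Auts2. Of 148 tested neighbours within 1 Mb, 1 was called at P0 (0.676%, beside 0.909% of all tested genes).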

How the data were processed

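RNA was measured by sequencing in 12 libraries, 3 per group, with groups taken from the labels. The deposited files hold raw counts per Ensembl gene, made with STAR 2.7.5a on mm10/GRCm38 per the submitters' processing notes, which also name edgeR 3.12. The annotation release stands in the file names, and trimming and the handling of multi-mapping reads are not given in the sources used here. Column 2, which ignores strand, was used. Every line names a gene. Symbols and positions came from GENCODE vM21 (GRCm38).

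The 6 libraries of a context were fitted together with edgeR 4.0.16 (filterByExpr, TMM, robust glmQLFit, glmQLFTest, Benjamini-Hochberg over all tested genes, threshold 0.05). SEs and 95% intervals come from the fitted F statistics. CPM use TMM sizes over 12 libraries, with a prior count of 2 on the log2 scale. Contexts were compared by an interaction term over all libraries. Total counts per library ran from 11247150 to 23340621. Intervals cover animals and counting together. Replicate pairs differed by more than sampling noise (chi-square per degree of freedom from 2.93 to 17.5).

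The 8 genes and all lists were chosen with earlier results of these data known. Named genes were the 8 genes, Auts2, called neighbours within 1 Mb, flanking and overlapping genes, other called chromosome 5 genes, the closest patterns among genes of average log2 CPM of at least 1, and called list members with a few others. Some genes that met this rule are not reported here. Flanking genes and the motifs were picked after the values were seen. Alternatives were RLE, DESeq2 1.42.0, other filters, non-robust fitting, 1 fit on all libraries, the library number series and leaving out each library.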

Additional observations from a re-analysis of the deposited data

Results flagged for a closer look

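The genotype effect differed between P14 and P0 for 5 of the 8 genes by the interaction term over all 12 libraries, the reason each is listed here. Taken as P14 minus P0 on the log2 scale, it was 1.47 for Atp10d, 0.92 for Zfp605, 0.53 for 9330182L06Rik, 0.50 for Cdkl2 and -0.59 for Coq2. The P0 values that chose the genes enter each difference, so these are descriptions and not independent tests. For C530008M17Rik, Gm1673 and Nwd2 the difference was 0.37, -0.25 and 0.12. Groups of 3 libraries were too small for the check on single outlying samples.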

How the results depend on the processing

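Direction at P0 was kept by all 8 genes in every alternative and in every fit with a library left out. Since the P0 groups of all 8 did not overlap, this is no separate evidence. Of the 8 genes, 7 passed at P0 with RLE, with at least 10 counts in every library or in 1 fit on all 12 libraries, 8 with DESeq2 or with low counts kept, 3 without robust fitting (Atp10d, Zfp605 and Cdkl2), and from 0 to 7 without 1 library. At P14, 0 of 8 passed in every alternative run. Values near 0 at P14 changed sign: Coq2 was 0.0027 without a filter and 0.00054 with at least 10 counts in every library, and without 1 library it ranged from -0.056 to 0.033, Atp10d from -0.068 to 0.15 and C530008M17Rik from -0.027 to 0.20. The cause was not tested.

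Over all genes, the P0 count of 147 became 375 with DESeq2, 625 with low counts kept, 50 when fitting was not robust, 284 when all libraries were fitted together, 465 once the number series was a term, and 2107 in the first series alone, and from 1 to 775 without 1 library. Of the P0 calls 31 were higher and 116 lower, against 947 and 1160 in the first series alone, 214 and 411 with low counts kept, 148 and 317 with the series term, and 108 and 267 with DESeq2. The largest counts without 1 library came without knockout replicate 3 at P0 and without control replicate 3 at P14. The P14 count of 342 became 534 with DESeq2, 814 with low counts kept, and from 104 to 1808 without 1 library. The interaction count of 326 became 535 with DESeq2, 646 with low counts kept, and from 125 to 905 without 1 library. With a 5 Mb window the share of called neighbours was 1.75% at P0 and 1.81% at P14, against 0.676% and 0.641% within 1 Mb. The P0 share at 5 Mb counts Atp10d and C530008M17Rik as each other's called neighbours. No paired analysis was possible because the labels give no replicate numbers shared between groups. The library number series, which holds both genotypes in each part, was fitted as a term in place of a pairing, with the counts given above.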
